A study of Gallus gallus with 12 samples.

Results

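The transcripts described here are the abundant mRNAs of hen liver whose mean levels stayed within 2-fold from the juvenile bird to the broody hen. A transcript belonged to them if its log2(FPKM + 1) was at least 8 in every one of the 12 livers, which is an FPKM of at least 255, and if its mean values at the 4 stages lay within 1 of one another on that scale, which is a distance of at most 2-fold. FPKM gives a transcript's fragments relative to its length and to all mapped fragments of that library. Of the 18260 mRNAs in the deposited table, 74 passed the level and 33 of these also passed the limit on the stage means. The remaining 41 are called abundant but not steady below. The 33 mRNAs were thus chosen by their own levels and stage means in the same 12 livers, so both are given as a description, with no test.

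The livers came from female chickens of the Luhua breed, 3 in the juvenile period (JP, day 60), 3 at sexual maturity (SM, day 133), 3 at peak laying (PL, day 220) and 3 in broodiness (BP, day 400). Each hen gave 1 library of whole liver tissue, and no treatment or mutation is named for any stage. Age and reproductive state change together from stage to stage and cannot be told apart. In bulk tissue, fewer cells of a type and less RNA per cell cannot be told apart either.

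Liver cells store iron and keep up a large output of secreted plasma proteins throughout life. Such secretion needs ribosomes and energy, and the mRNAs for these functions are usually among the most abundant of the organ. In the hen, oestrogen adds the yolk precursors to this output around lay, which makes a few additional mRNAs extremely abundant in laying birds. An mRNA that stays level through these changes is of interest as a scale against which others can be read, and such mRNAs are commonly sought as reference genes. The deposited table lists Ensembl transcripts without gene names, and 0 of the 33 identifiers could be matched to a chicken gene in the RefSeq table at hand. The 33 mRNAs are therefore given by identifier, no function is assigned to any of them, and the liver's defining markers could not be looked up.

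Added up over all mRNAs, FPKM came to at least 688208 and at most 772041 in each SM and BP liver, against at least 408296 and at most 539529 in each JP and PL liver. Whole stages lie on either side of this gap, so stage and library cannot be told apart across it. The share of reads that mapped, as the study lists it by library, was also lower in every SM and BP library than in every JP and PL library, and its part in the results was not tested. PL replicate 3 stood apart from the other PL livers, and values without it (PL then n = 2) were added after the data were seen. Without it, 5 of the 33 mRNAs had stage means over 1 apart. No liver was a copy of another (0 identical pairs).

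The 33 mRNAs spanned a wide range of levels, with 1 far above the rest. Averaged over 12 livers, 9 of them had a log2(FPKM + 1) above 10, 16 lay from 9 to 10 and 8 lay under 9. The lowest mean was 8.39, for ENSGALT00000089402, and the highest 15.83, for ENSGALT00000069352. No other member had a mean above 12.18.

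**Figure D1:**
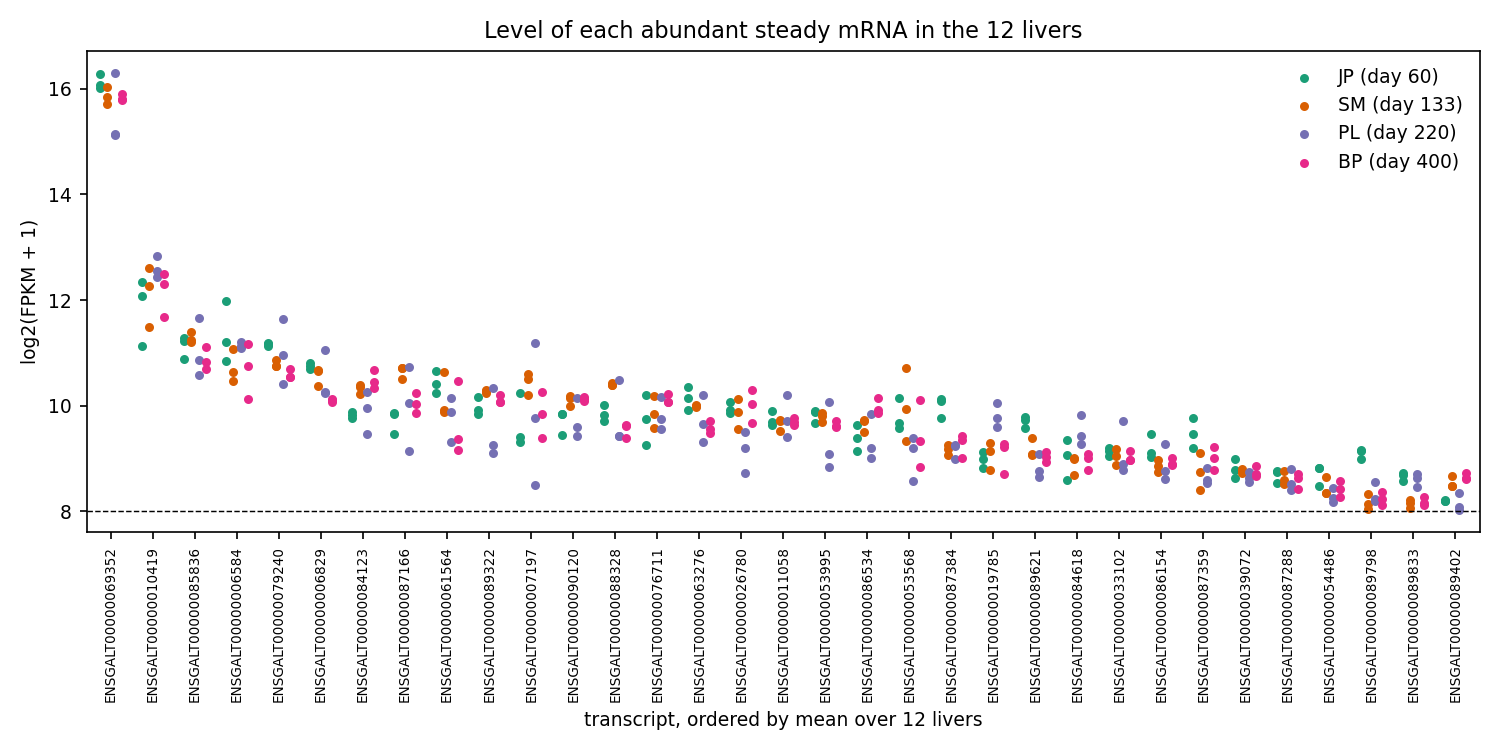
Level of the 33 abundant steady mRNAs, as log2(FPKM + 1) on the vertical axis, with 1 point for each of the 12 livers, coloured by stage (3 hens each), and transcripts ordered by their mean. The dashed line is the lower limit of 8, and the first transcript, with a mean of 15.83, lies well above the second at 12.18.

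The limits of the rule cut through a continuous range. The members nearest to the lower limit were ENSGALT00000089402, with 8.03 in its lowest liver, and ENSGALT00000089798, with 8.05. Just outside it were ENSGALT00000007080, with 7.97, and ENSGALT00000054328, with 7.96. For the distance between stage means, ENSGALT00000053568 at 0.94 and ENSGALT00000089798 at 0.93 were the last inside, and ENSGALT00000089931 at 1.01 and ENSGALT00000084398 at 1.03 the first outside.

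Together the 33 mRNAs made up a sizeable part of the liver's mRNA, although the part differed between livers. Their share of total mRNA FPKM was 18.2%, 19.8% and 21.2% in the JP livers, 12.004%, 14.1% and 13.7% in the SM livers, 15.1%, 15.4% and 25.4% in the PL livers, and 12.2%, 11.6% and 11.5% in the BP livers. The 6 livers of SM and BP were all below the 6 of JP and PL, and PL replicate 3 was the highest of all. The rule held the stage means of the 33 close, while the totals were higher in every SM and BP liver. This division therefore largely restates the gap in the totals and is not a separate observation. As stage means (SD, n = 3 livers) this was 19.8% ± 1.48 in JP livers, 13.3% ± 1.11 in SM livers, 18.6% ± 5.84 in PL livers and 11.7% ± 0.402 in BP livers. Without PL replicate 3 the mean at PL was 15.3% (n = 2). The 41 abundant mRNAs that were not steady held 31.6% ± 1.47 in JP livers, 42.0% ± 3.07 in SM livers, 18.3% ± 2.90 in PL livers and 46.8% ± 1.03 in BP livers, and 16.7% at PL without replicate 3 (n = 2).

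Most of the share belonged to ENSGALT00000069352, which alone gave from 53.1% to 69.6% of the FPKM of the 33 mRNAs. Its FPKM was 66478, 68897 and 79287 in the JP livers, 53563, 67248 and 58456 in the SM livers, 35949, 35764 and 80909 in the PL livers, and 57318, 56162 and 61269 in the BP livers. It was lowest in 2 of the PL livers and highest in the third, so that both ends of its range, a 2.26-fold distance, lay within PL. It held 13.5% ± 1.22 of total mRNA FPKM in JP livers, 8.50% ± 1.14 in SM livers, 11.3% ± 4.85 in PL livers and 7.71% ± 0.237 in BP livers (SD, n = 3 livers), and 8.50% at PL without replicate 3 (n = 2). Its share alone overlapped between SM and PL, with 9.64% in SM replicate 2 against 8.80% and 8.20% in PL replicates 1 and 2.

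The other 32 mRNAs held a smaller share, divided between the stages in the same way. They made up 6.29% ± 0.320 of total mRNA FPKM in JP livers, 4.76% ± 0.387 in SM livers, 7.35% ± 1.10 in PL livers and 4.04% ± 0.472 in BP livers (SD, n = 3 livers). Again all livers of SM and BP, with 3.54% to 5.197%, lay below all livers of JP and PL, with 5.92% to 8.49%. The FPKM sum of the 32 averaged 33373 in JP, 33536 in SM, 32661 in PL and 30453 in BP livers. Here too the division largely restates the gap in the totals. Without PL replicate 3 the mean at PL was 6.77% (n = 2).

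**Figure D2:**
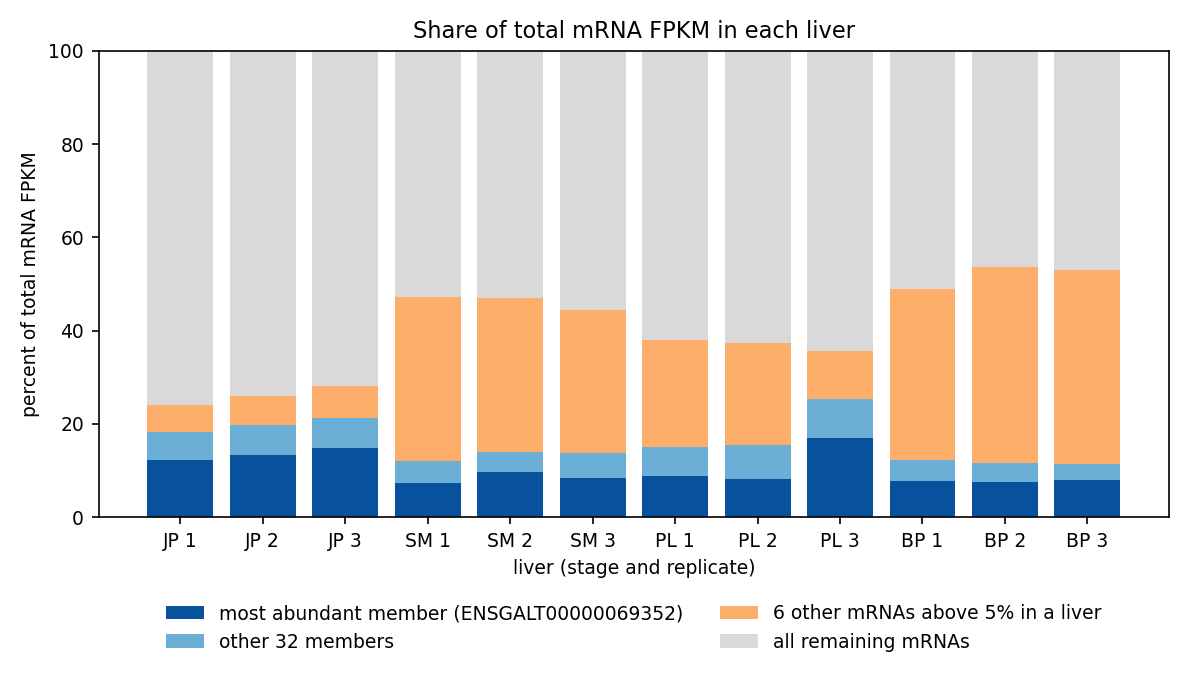
Share of total mRNA FPKM in each of the 12 livers, in percent, with JP, SM, PL and BP from left to right and replicates side by side. The dark blue part is ENSGALT00000069352, the light blue part the other 32 steady mRNAs, the orange part 6 other mRNAs that exceeded 5% in at least 1 liver, and the grey part all remaining mRNAs. The orange part covers 30.8% to 42.1% of each SM and BP liver, where the blue parts are smallest.

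The FPKM sum of the 33 mRNAs was 104927 ± 8045 in JP livers, 93292 ± 5546 in SM livers, 83535 ± 33060 in PL livers and 88702 ± 1801 in BP livers (SD, n = 3 livers), and 64518 at PL without replicate 3 (n = 2). The FPKM sum of all other mRNAs was 426314 ± 13653 in JP livers, 611150 ± 25342 in SM livers, 357593 ± 11067 in PL livers and 666742 ± 16148 in BP livers. No livers of any pair of stages overlapped in this second sum. The rule placed the 41 abundant mRNAs in it because their stage means differed, so it is a description with no test, and nothing is read from its contrast with the first sum.

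A few very abundant mRNAs outside the 33 took parts of the total that differed widely between livers. Besides ENSGALT00000069352, 6 mRNAs exceeded 5% of total mRNA FPKM in at least 1 liver. ENSGALT00000043486 held at least 9.71% and at most 16.4% in each SM and BP liver, against at most 0.346% in each JP and PL liver, and ENSGALT00000045308 and ENSGALT00000042470 had the same division. ENSGALT00000024419 held 12.8%, 11.2% and 2.13% in the PL livers and at most 1.64% in any other liver, and ENSGALT00000060226 was likewise highest in the PL livers and lowest among them in replicate 3. ENSGALT00000028633 was abundant at every stage but showed this division too. It held 8.70% to 10.8% in each SM and BP liver and 2.92% to 6.62% in each JP and PL liver. Together the 6 held 6.28% ± 0.538 in JP livers, 32.99% ± 2.23 in SM livers, 18.4% ± 6.99 in PL livers and 40.1% ± 2.97 in BP livers (SD, n = 3 livers), with 10.3% in PL replicate 3 and a mean of 22.4% in the other PL livers.

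With these 6 mRNAs taken out of the denominator, the share of the 33 no longer divided the stages. It was then 19.4%, 21.1% and 22.8% in the JP livers, 18.5%, 21.0% and 19.8% in the SM livers, 19.6%, 19.8% and 28.3% in the PL livers, and 19.3%, 19.96% and 19.6% in the BP livers. The livers of all stages overlapped, and PL replicate 3 alone lay outside the range of 18.5% to 22.8% that held the other 11. The FPKM sum of the remaining mRNAs, without the 33 and the 6, was 392966 ± 14400 in JP livers, 378480 ± 8098 in SM livers, 278210 ± 27799 in PL livers and 363566 ± 15193 in BP livers. All PL livers lay below all others in it, and as the 6 were picked by their values no test is given.

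Total mRNA FPKM was spread over fewer transcripts in the SM and BP livers, where the share was low. The dominant mRNAs named above enter these counts, so this is not a separate observation. Stage and library cannot be told apart here either. The number of transcripts whose FPKM add up to 50% of the total was 34, 44 and 38 in the JP livers, 11, 14 and 19 in the SM livers, 20, 33 and 54 in the PL livers, and 11, 7 and 6 in the BP livers. All SM and BP livers were below all JP and PL livers, where PL replicate 3 was the highest and PL replicate 1 the lowest.

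Rank within a liver does not depend on how its library was scaled. A high rank in every liver largely follows from the rule, which asked for an FPKM of at least 255 there. The ranks are therefore a description. Ranked by FPKM among all 18260 mRNAs, no member fell below rank 229 in any liver, 17 stayed within the first 100 in all 12 livers and 5 within the first 50. ENSGALT00000069352 ranked 1, 1 and 1 in the JP livers, 4, 3 and 3 in the SM livers, 2, 2 and 1 in the PL livers, and 4, 4 and 4 in the BP livers. It was first in 3 JP livers and PL replicate 3, and was overtaken elsewhere by mRNAs outside the 33. ENSGALT00000010419, the second by mean, ranked from 6 to 24, and ENSGALT00000085836, the next, from 13 to 33. Of the 33 mRNAs, 23, 24 and 24 were among the first 100 in the JP livers, 22, 23 and 21 in the SM livers, 29, 28 and 26 in the PL livers, and 21, 20 and 24 in the BP livers. All PL livers lay above all others in this count.

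**Figure D3:**
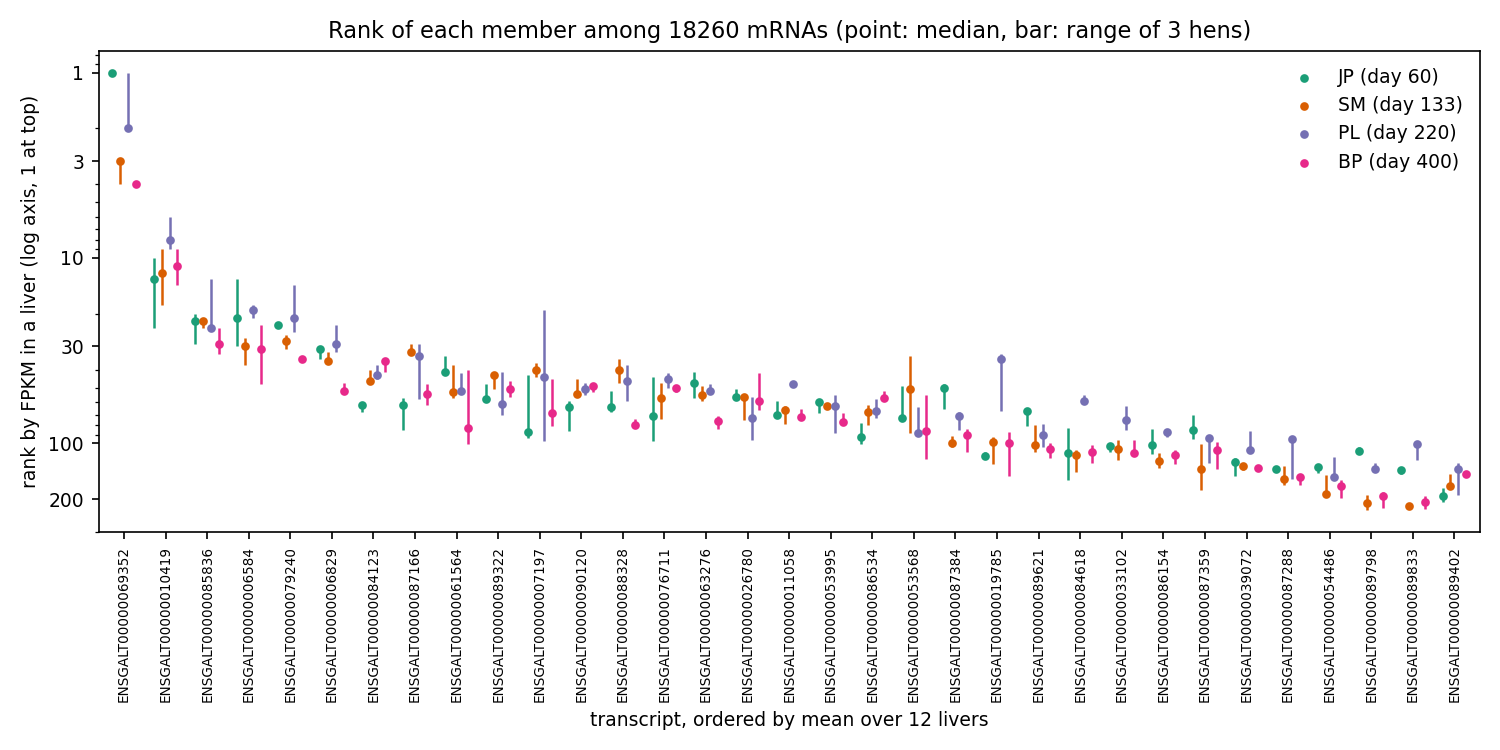
Rank of each of the 33 steady mRNAs by FPKM among 18260 mRNAs within a liver, on a log axis with rank 1 at the top. Points are medians and bars the range of 3 hens, coloured by stage, with transcripts ordered by mean level. ENSGALT00000069352 stays between rank 1 and 4 and the lowest rank of any member in any liver is 229.

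The order of the 33 mRNAs among themselves was also largely kept. Spearman's rho over the 33 levels, taken between 2 livers, averaged 0.902 ± 0.049 for the 12 pairs of livers of 1 stage and 0.827 ± 0.066 for the 54 pairs of livers of different stages (SD over pairs, which share livers). These are correlations across transcripts, given as a description. Over all 18260 mRNAs, which span a wider range of levels, the means were 0.967 and 0.931. Among pairs of stages the mean was highest for BP and SM, at 0.897, and lowest for PL and JP, at 0.745. For the 41 abundant mRNAs that were not steady, livers of 1 stage had a mean rho of 0.932 and livers of different stages one of 0.588, with 0.881 for BP and SM and 0.405 for BP and JP. Part of this gap is fixed by the rule, which kept the 33 mRNAs to close stage means.

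The spread between hens of 1 stage differed widely among the 33 mRNAs. It is given as the SD of log2(FPKM + 1) around the stage means (8 degrees of freedom). Its median was 0.27 over the 33 mRNAs, with quartiles of 0.22 and 0.33 and a range of 0.09 to 0.76. The median was 0.36 over the 41 abundant mRNAs that were not steady and 0.22 over all 16703 mRNAs tested. The mRNAs tested include many of low FPKM, where the added 1 narrows the SD, so the 0.22 is not a like measure. For 3 of the 33 mRNAs the SD between hens exceeded the largest distance between stage means. The highest liver was over 2-fold above the lowest in FPKM for 22 of the 33 and over 4-fold for 2. Leaving out PL replicate 3 gave counts of 1 for an SD above the distance, 19 over 2-fold and 2 over 4-fold. These values are from FPKM as deposited and so include shifts of whole libraries. With the median-ratio scaling explained below, the median SD was 0.22 over the 33 mRNAs and 0.32 over the 41.

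**Figure D4:**
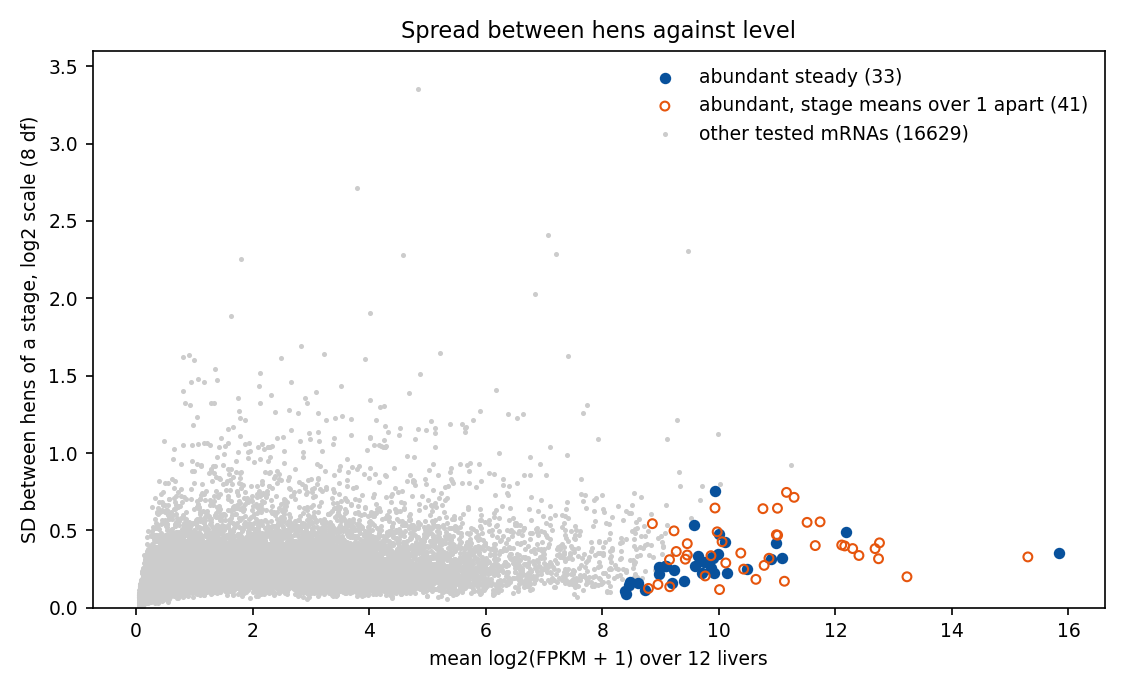
Standard deviation of log2(FPKM + 1) between hens of a stage (vertical axis, 8 degrees of freedom) against the mean level over 12 livers (horizontal axis). Filled blue points are the 33 steady mRNAs, open orange points the 41 abundant mRNAs with stage means over 1 apart and grey points all other tested mRNAs. The blue points lie between 0.09 and 0.76 with a median of 0.27.

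The spread was widest at PL, which rested on replicate 3. The median SD over the 33 mRNAs was 0.18 within JP, 0.13 within SM, 0.39 within PL and 0.13 within BP, and PL was the stage with the largest SD for 22 of the 33. PL replicate 3 was the highest of the PL livers for 25 of the 33 mRNAs, and PL replicate 1 was the lowest for 23 and never the highest. At the other stages the median member of a liver lay between -0.08 and 0.09 of its stage mean. The median member lay 0.37 above the stage mean in PL replicate 3, at -0.27 in PL replicate 1 and at -0.08 in PL replicate 2. Over all 16703 mRNAs tested the medians in these livers were 0.16, -0.14 and -0.03, in the same order. Over the 41 abundant mRNAs that were not steady they were 0.46, -0.24 and -0.09. The median SD within PL was 0.47 over these 41 and 0.24 over all mRNAs tested, in each case the largest of the 4 stages. Without PL replicate 3 the median SD within PL was 0.18, PL had the largest SD for 11 of the 33, as did JP, and the median SD around the stage means was 0.16, against 0.19 over all mRNAs tested.

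**Figure D5:**
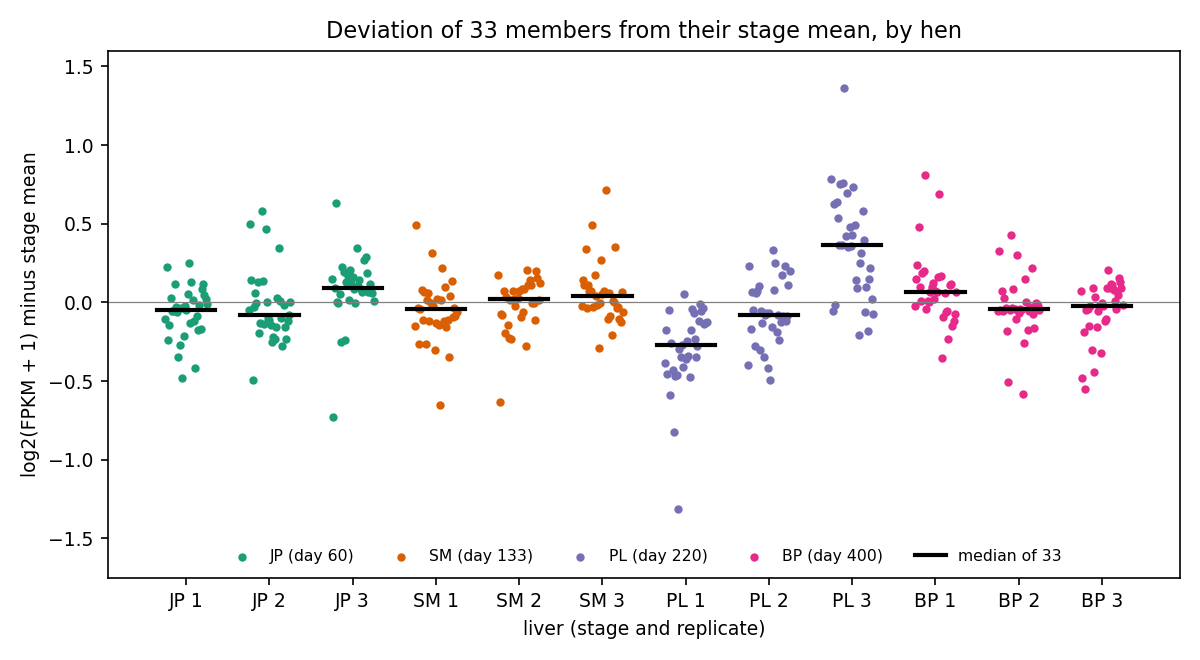
Deviation of each of the 33 steady mRNAs from its stage mean in each liver, in log2(FPKM + 1), with 1 point for each mRNA, coloured by stage, and the median of the 33 as a black bar. The bars lie between -0.08 and 0.09 in the JP, SM and BP livers and at -0.27, -0.08 and 0.37 in the 3 PL livers.

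The mRNAs with the least spread between hens were among the lower ones of the set. ENSGALT00000089833 had an SD of 0.09 and FPKM of 409.6, 381.7 and 420.8 in the JP livers, 265.4, 283.7 and 295.1 in the SM livers, 354.1, 418.4 and 394.4 in the PL livers, and 277.2, 286.5 and 310.4 in the BP livers. Its hens of a stage were close, but all SM and BP livers lay below all JP and PL livers. The totals divide the same groups of livers in the reverse direction, being higher at SM and BP. ENSGALT00000089402, with an SD of 0.11, showed the opposite order to ENSGALT00000089833. It had 358.2 FPKM or more in each SM and BP liver, up to 422.6, and 326.6 or less in each JP and PL liver, down to 259.9. ENSGALT00000039072, with an SD of 0.11 as well, had 393.5, 437.5 and 505.2 FPKM in the JP livers, 444.1, 431.7 and 421.8 in the SM livers, 397.0, 376.9 and 427.5 in the PL livers, and 462.0, 407.6 and 416.4 in the BP livers. Its livers of different stages overlapped throughout, and its highest liver was 1.34-fold above its lowest.

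The mRNAs with the most spread between hens were steady only in their means. ENSGALT00000007197 had an SD of 0.76, with FPKM of 633.1, 1207 and 683.1 in the JP livers, 1447, 1179 and 1562 in the SM livers, 362.2, 868.7 and 2319 in the PL livers, and 922.4, 1231 and 673.2 in the BP livers. Its lowest and highest livers, 6.40-fold apart, were both PL livers, and without PL replicate 3 the distance was 4.31-fold and the stage means lay over 1 apart. ENSGALT00000053568, with an SD of 0.54, ranged from 381.4 in PL replicate 1 to 1670 in SM replicate 3. ENSGALT00000010419, with an SD of 0.49, had 4317, 5214 and 2229 FPKM in the JP livers, 6229, 2863 and 4897 in the SM livers, 5526, 7318 and 6010 in the PL livers, and 5057, 5740 and 3278 in the BP livers. Here PL was the most even stage, and single livers of JP, SM and BP were low.

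The stage means lay closest together for 3 mRNAs of middle and low level. For ENSGALT00000033102 they were 9.13 ± 0.08 in JP livers, 9.03 ± 0.15 in SM livers, 9.13 ± 0.51 in PL livers and 9.03 ± 0.10 in BP livers on the log2(FPKM + 1) scale (SD, n = 3 livers), a distance of 0.10. ENSGALT00000087288 had 8.69 ± 0.13, 8.63 ± 0.13, 8.58 ± 0.21 and 8.59 ± 0.15 in the same order of stages. ENSGALT00000011058 had 9.74 ± 0.14, 9.66 ± 0.11, 9.77 ± 0.40 and 9.70 ± 0.07. The mean of ENSGALT00000033102 at PL was 8.84 ± 0.07 without replicate 3 (n = 2), which made PL its lowest stage and brought the distance to 0.29. The distance was then 0.10 for ENSGALT00000087288 and 0.19 for ENSGALT00000011058, and ENSGALT00000039072, at 0.20, came before ENSGALT00000033102. In all, 10 of the 33 mRNAs had stage means within 0.5 of one another, and 8 without PL replicate 3.

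The remaining mRNAs among the 10 highest differed in where they were high. ENSGALT00000085836 averaged 11.13 ± 0.21 in JP livers, 11.28 ± 0.10 in SM livers, 11.03 ± 0.56 in PL livers and 10.88 ± 0.22 in BP livers on the log2(FPKM + 1) scale, with all SM livers above all BP livers and the other stages overlapping. ENSGALT00000006584 averaged 11.35 ± 0.58, 10.72 ± 0.31, 11.15 ± 0.06 and 10.69 ± 0.52 in the same order, and it was the member among these whose PL livers were closest. ENSGALT00000079240, at 11.16 ± 0.03, 10.79 ± 0.06, 11.002 ± 0.62 and 10.60 ± 0.09, and ENSGALT00000006829, at 10.76 ± 0.06, 10.57 ± 0.17, 10.52 ± 0.47 and 10.11 ± 0.03, had their highest mean at JP and their lowest at BP.

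ENSGALT00000084123 was higher at SM and BP, with 10.33 ± 0.10 and 10.49 ± 0.17, than at JP, with 9.82 ± 0.05, while its PL livers, at 9.90 ± 0.40, overlapped with those of JP and SM. ENSGALT00000087166 was highest at SM, with 10.64 ± 0.12, against 9.73 ± 0.22 at JP, 9.97 ± 0.79 at PL and 10.05 ± 0.19 at BP. ENSGALT00000061564 had 10.44 ± 0.21 in JP livers, 10.14 ± 0.42 in SM livers, 9.77 ± 0.43 in PL livers and 9.67 ± 0.71 in BP livers. ENSGALT00000089322 had 9.97 ± 0.17, 10.27 ± 0.03, 9.57 ± 0.66 and 10.11 ± 0.08 in the same order, with PL lowest in the mean although PL replicate 3 was the highest liver of all. With that liver left out, the lowest mean was also at PL for ENSGALT00000085836 (10.72), ENSGALT00000084123 (9.71), ENSGALT00000087166 (9.60) and ENSGALT00000061564 (9.59), and the distance between stage means was 0.99 for ENSGALT00000069352, against 0.60 with it.

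With FPKM as deposited, the differences left within the 2-fold limit leaned towards higher levels in juvenile liver. For PL against JP this lean was gone with median-ratio scaling and turned round with equal totals, both given below. All values in this paragraph are as deposited. The mean was highest in JP livers for 16 of the 33 mRNAs, in SM for 6, in PL for 5 and in BP for 6. It was lowest in JP livers for 7, in SM for 5, in PL for 13 and in BP for 8. Without PL replicate 3, PL had the lowest mean for 24 and the highest for 3, and JP the highest for 18 and the lowest for 2. For 8 mRNAs the means of SM and BP both exceeded those of the other stages, and for 7 both lay under them (8 and 4 without PL replicate 3). The rule bounded these stage means, and no such counts were made over all mRNAs tested, so the counts are a description. The median difference of the 33 mRNAs was -0.08 for SM minus JP, -0.15 for PL minus JP, -0.18 for BP minus JP, -0.16 for PL minus SM, -0.01 for BP minus SM and 0.05 for BP minus PL on the log2(FPKM + 1) scale. Over all 16703 mRNAs tested the same medians were 0.22, -0.04, 0.14, -0.29, -0.08 and 0.19. Without PL replicate 3 the median of the 33 was -0.42 for PL minus JP, -0.32 for PL minus SM and 0.19 for BP minus PL, against -0.12, -0.38 and 0.27 over all mRNAs tested.

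In the limma fit of all mRNAs, 6 of the 33 passed in at least 1 of the 6 comparisons (adjusted p under 0.05 and a fold of at least 1.5), as did 48.2% of all mRNAs tested. By comparison, 3 were called between SM and JP (background 25.2%), 5 between PL and JP (19.1%), 3 between BP and JP (22.8%), 1 between PL and SM (29.2%), 0 between BP and SM (1.16%) and 2 between BP and PL (22%). The comparisons share livers, and since the rule held the stage means together, nothing is read from these counts. For BP against SM, 1 of the 33 had an unadjusted p under 0.05 in limma, a limit for which no share over all mRNAs was computed. Without the trend in the moderation the number called for BP against SM was also 0.

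The count of 6 depended on the fit and on single livers. limma drew each SD towards a trend over the mean level, which few mRNAs supported at the top. For ENSGALT00000069352 the moderated SD was 1.32, against an SD between hens of 0.36. It was called in no comparison, and whether it would be called with its own SD was not tested. Over the 24 mRNAs with a mean under 10 the medians were 0.30 moderated and 0.25 between hens. Without the trend 12 of the 33 were called, as were 7989 of the 16703 mRNAs tested. Without PL replicate 3 the set then formed had 29 mRNAs, of which 13 were called, beside 9179 of 16569 mRNAs tested. Without PL replicate 1 it had 43, of which 10 were called, beside 7464 of 16628.

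Of the 6 called mRNAs, 3 are named here after their values were seen. ENSGALT00000089798 had 566.2, 506.6 and 575.5 FPKM in the JP livers, 279.9, 320.3 and 263.5 in the SM livers, 291.4, 300.9 and 373.4 in the PL livers, and 278.6, 301.0 and 331.4 in the BP livers. All SM, PL and BP livers lay below all JP livers. ENSGALT00000087384 had the same order, with 507.2 to 690.5 FPKM in the 9 livers of the later stages, against 867.4 to 1115 in the JP livers. ENSGALT00000019785 had 870.6, 1066 and 775.7 FPKM in the PL livers, above all 9 other livers at 418.3 to 624.4.

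Which mRNAs count as steady depended on how the libraries were scaled. With median-ratio scaling, in which a liver is divided by the median of its mRNAs' ratios to their geometric means, 40 mRNAs met the rule, of which 24 were among the 33. With each liver brought to the same total, 43 met it, of which 18 were among the 33, and these 18 met it under all 3 scalings. Of the members named above, 12 belonged to the 18, among them ENSGALT00000069352, ENSGALT00000085836, ENSGALT00000039072, ENSGALT00000087288 and ENSGALT00000089402. By contrast, ENSGALT00000010419, ENSGALT00000006584, ENSGALT00000061564, ENSGALT00000087384, ENSGALT00000019785, ENSGALT00000089798 and ENSGALT00000089833 met the rule only with FPKM as deposited.

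The direction of the small differences depended on the scaling as well. After median-ratio scaling, which brought the median of all mRNAs tested to between -0.02 and 0.04 in every comparison, the median of the 33 mRNAs was -0.48 for SM minus JP, 0.02 for PL minus JP, -0.42 for BP minus JP, 0.41 for PL minus SM, 0.14 for BP minus SM and -0.36 for BP minus PL on the log2 scale. The median of the 33 was then lower at SM and BP than at JP and PL, along the gap in total FPKM. Of the 33, 29 were lower at SM than at JP and 28 lower at BP than at PL, against 20 and 14 with FPKM as deposited. This direction largely follows from the rule and the scaling, and is not a separate observation. The rule held the stage means close in FPKM as deposited, and the scaling then moved all members of a liver alike. The log2 factor divided out averaged 0.29 in SM livers and 0.13 in BP livers. It averaged -0.11 in JP livers and -0.27 in PL livers. With equal totals the median was -0.49 for SM minus JP, 0.12 for PL minus JP, -0.69 for BP minus JP, 0.52 for PL minus SM, -0.12 for BP minus SM and -0.73 for BP minus PL. These medians likewise largely restate the gap in the totals.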

How the data were processed

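Liver RNA of 12 hens was sequenced by the authors after ribosomal RNA depletion, with strand-specific libraries. Reads were mapped to Gallus_gallus-5.0 with HISAT2 2.1.0, and the deposited FPKM values were made by the authors with StringTie 1.3.3, in a table for mRNAs and another for lncRNAs. They are not counts, so no counting error is given and no count model was applied. All columns were matched to a liver by name (0 were left out).

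The values were taken to log2(FPKM + 1). limma 3.58.1 in R 4.3.3 was fitted to all 12 livers with 4 stage means (8 residual degrees of freedom) and variances moderated along the mean level, over 16703 mRNAs with FPKM above 0.1 in at least 3 livers. A transcript was called at a Benjamini-Hochberg adjusted p under 0.05 and a fold of at least 1.5. The permutation test planned for the FPKM sum of all other mRNAs is not reported, because the rule placed mRNAs in that sum by their stage means. Other steps used Python 3.11.15 with pandas 2.3.3. The tests were checked on simulated data.

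The set, its thresholds and the transcripts to be named were chosen with earlier results of these data known. Named are the 10 highest by mean, the 3 with the lowest and the 3 with the highest SD between hens, the 3 with the closest stage means, those next to the thresholds and any mRNA above 5% of a liver's FPKM. Alternatives covered scaling (by median ratio or to an equal total), the added value, both thresholds, the filter, the moderation, fits by pair of stages, a replicate block and fits without each liver. The lists of gene symbols prepared for cell types and pathways (cell type markers, ribosomal proteins, translation factors, mitochondrially encoded genes, nuclear oxidative phosphorylation, plasma proteins, iron storage, qPCR reference genes and yolk precursors) could not be applied and gave no result, since 0 of 18260 transcript identifiers matched the gene table at hand.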

Additional observations from a re-analysis of the deposited data

How the results depend on the processing

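Over 12 livers the share of the 33 mRNAs averaged 15.9% and the mean rho between livers 0.841. With a level of at least 7, 89 mRNAs met the rule and 33 of these were called, as were 48.2% of all mRNAs tested. With a level of at least 9 there were 16, of which 0 were called, with a rho of 0.749. Stage means within 0.5 left 10 mRNAs, 0 called, with a share of 1.38% and a rho of 0.914. Stage means within 1.5 gave 48 mRNAs, with a share of 19.0% and 19 called. Both counts of 0 are from the same limma fit of 16703 mRNAs, read over smaller sets. In that fit 6 of the 16 and 1 of the 10 had an unadjusted p under 0.05 in some comparison. The share of all mRNAs tested under that unadjusted limit was not computed, so nothing is read from these 2 numbers. The number called was 12 of 40 with median-ratio scaling and 11 of 43 with equal totals, each over its own set. Without the trend in the moderation it was 12 of the 33. It was 15 when the 33 were fitted after median-ratio scaling, an alternative added after the data were seen. Over all mRNAs tested, 7419 of 16584 were called with median-ratio scaling, 8035 of 16648 with equal totals and 7989 of 16703 without the trend. The moderation is described above, and the cause of the other changes was not tested. Also added then, the share was 5.61% without ENSGALT00000069352 and 20.8% with the 6 other dominant mRNAs out of the denominator. With equal totals the largest distance between stages in the FPKM sum of all other mRNAs was 39004 and with median-ratio scaling 161128, each over its own set, against 309149 as deposited.

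With each liver left out in turn, from 29 to 43 mRNAs met the rule and from 5 to 13 of the set then formed were called. The number called was 10 of 43 without PL replicate 1 and 13 of 29 without PL replicate 3. Over all mRNAs tested, it ran from 7311 of 16615 without PL replicate 2 to 9179 of 16569 without PL replicate 3. The share averaged 14.3% to 16.8%, and the median SD between hens was 0.15 to 0.28 (0.15 without PL replicate 3). The rho was 0.823 to 0.873, and the distance in the sum of other mRNAs was 301374 to 316565. With the replicate number as a block, 5 of the 33 were called, as were 7980 of the 16703 mRNAs tested. Same-numbered livers did not deviate together (r between -0.11 and 0.07, 0 of 18 pairs above 0.1). These are correlations across transcripts of deviations from means of 3 livers, so they cannot show whether the numbers mark a pairing. FPKM carry no read counts, and the read numbers that the study lists by library were not used here.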

Other observations

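The lncRNA table was not part of the comparisons above. None of its 16930 lncRNAs reached a log2(FPKM + 1) of 8 in all 12 livers (0 of 16930), and 6 reached it in at least 1 liver. Summed over all lncRNAs, FPKM came to 3757 ± 136 in JP livers, 7354 ± 256 in SM livers, 3550 ± 440 in PL livers and 8034 ± 754 in BP livers (SD, n = 3 livers), so that adding it to the denominator hardly moved the share of the 33 mRNAs, which was then between 11.4% and 25.2% in the 12 livers.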
